A study of Mus musculus with 9 samples.

Results

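Kinesins were described across mouse retinas labelled as Rb knockout, Rb/p107 double knockout or wild type. The family was taken as every gene whose symbol in the array annotation begins with Kif or Kifc followed by a digit. Only transcript clusters, the probe sets that each read one transcript region, were used, and only where they carry a single symbol. The rule gave 32 of the 24259 genes on the array, each read by 1 probe set. Of these, 30 were among the 42 protein-coding kinesin genes of the reference gene table and 2 were pseudogenes, Kif4-ps and Kifc5c-ps. The 9 family genes on chromosomes 1, 2 and 3, and 3 others whose transcript clusters carry several symbols (Kif17, Kif1c and Kif27), were not analysed here. By known function, 12 members were placed among mitotic kinesins, 9 among axonal and vesicle kinesins and 6 among ciliary kinesins. The other 5 were Kif2a, Kif12, Kif26a and both pseudogenes.

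The samples were whole retinas taken at postnatal day 8 (P8) in 3 groups of 3 biological replicates, 1 Affymetrix array each, 9 arrays in all. The groups were Rb/p107 double knockout (DKO below), Rb knockout (Rb KO) and wild type (WT), and all shared the C57Bl/6x129SvJ background. The labels do not say how the alleles were deleted, in which cells, or whether the mutant mice carried a Cre transgene. All values are log2 intensities, and differences are given as mutant minus WT or DKO minus Rb KO.

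Kinesins are motor proteins that use ATP to walk along microtubules or to take them apart at their ends. Those of dividing cells build the spindle, move chromosomes and help to split the cell, and their transcripts are known to peak late in the cell cycle. Others carry vesicles, mitochondria and other cargo along axons and dendrites, and kinesin-2 motors carry material into cilia, which in photoreceptors form the light-sensing outer segment.

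The targeted gene gave little check of the labels. Rb1 read 9.74, 10.00 and 9.85 in DKO, 9.85, 10.02 and 9.86 in Rb KO, and 10.00, 10.19 and 10.46 in WT retinas, and the part of the transcript that its probe set reads is not given. The p107 gene, Rbl1, was not analysed here. Rod, cone, bipolar and ganglion cell markers were above background in WT retinas, with all 5 of 5 measured rod, 5 of 5 cone, 6 of 6 bipolar and 7 of 8 ganglion cell markers above it in every WT array. The background level of an array is the 95th percentile of its 5222 negative controls, and it ran over the arrays between 7.94 and 8.5. DKO replicate 2 stood apart from the other arrays, with 5.47 for Xist against 11.44 to 12.15 elsewhere and a mean of 9.10 over 8 lens genes against 6.64 to 7.53. Where a call of a kinesin or of a named partner gene ended without that array, the value without it is given too.

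Of the 32 members, 13 were called higher and 8 lower in DKO against WT, where 29.3% of all genes were called. In Rb KO against WT 13 were called higher and 7 lower, where 24.4% of all genes were called (limma, adjusted p under 0.05 over all genes). In all, 23 members were above background in some array and 9 in none, and those 9 are counted among the 32.

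The mitotic kinesins were high in both mutants and at or below background in WT retinas. Of 12 measured, 11 rose in DKO against WT and 11 rose in Rb KO against WT, in each case all but Kif2b, and 11 rose in DKO also without DKO replicate 2. Over all genes 12.2% rose in DKO and 10.2% rose in Rb KO. The median log2 difference of the 12 was 3.15 in DKO and 2.66 in Rb KO, beside medians over all genes of -0.06 and -0.05. Both comparisons use the same 3 WT arrays. For 10 of the 11 no WT array was above background, so the true change has only a lower limit, written below as "at least": it sets the mutant mean against the mean of the background levels of the WT arrays. With these limits in place of the fitted differences the medians were 1.49 in DKO and 1.05 in Rb KO. A whole retina does not separate more cells that express a gene from more RNA per cell, and this holds for every difference below.

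Kif11 is a tetrameric motor that pushes the spindle poles apart. It read 11.17, 11.02 and 11.08 in DKO retinas, 10.53, 10.93 and 10.49 in Rb KO retinas and 6.97, 7.26 and 7.05 in WT retinas. All mutant arrays lay far above all WT arrays, none of which was above background. The level was at least 7.66-fold higher in DKO (log2 difference 3.99, SE 0.122, adjusted p = 1.54e-08) and at least 5.66-fold higher in Rb KO (3.56, SE 0.122, adjusted p = 4.08e-08) than in WT. Kif15, which can stand in for Kif11 in holding the spindle bipolar, read 9.40, 9.13 and 9.14 in DKO, 8.78, 9.24 and 8.69 in Rb KO, and 5.28, 5.30 and 5.22 in WT. The mutant arrays did not overlap with WT, and Rb KO replicate 2 lay inside the DKO range. Kif15 was at least 2.11-fold higher in DKO and at least 1.68-fold higher in Rb KO than in WT.

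Kif23, Kif20a and Kif20b act when the cell body is divided. Kif23 and its partner Racgap1 form the centralspindlin complex of the spindle midzone. Its levels were 10.19, 9.93 and 9.94 in DKO, 9.67, 9.84 and 9.30 in Rb KO, and 5.93, 6.11 and 5.89 in WT retinas. Every mutant array stood above background and every WT array below it, and the fitted differences of 4.04 in DKO (SE 0.133, adjusted p = 1.85e-08) and 3.63 in Rb KO (SE 0.133, adjusted p = 5.98e-08) correspond to rises of at least 3.65-fold and 2.75-fold. Kif20a, which brings Aurora B to the midzone, read 10.12, 9.80 and 9.94 in DKO, 9.43, 9.78 and 9.32 in Rb KO, and 6.58, 6.82 and 6.44 in WT. Kif20b, a motor of the last step of cell separation, read 9.20, 8.98 and 8.93 in DKO, 8.32, 8.82 and 8.36 in Rb KO, and 5.79, 6.23 and 6.25 in WT. Neither gene overlapped between mutants and WT, although Kif20b in Rb KO replicate 1 was not above the background of its own array. Kif20b was at least 1.85-fold higher in DKO and at least 1.28-fold higher in Rb KO than in WT, and Kif20a at least 3.50-fold and 2.57-fold.

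Kif4 and Kif22 are chromokinesins, motors bound to chromosomes. Kif4 lies on the X chromosome and also works with Prc1 on the midzone. Its values were 9.83, 9.53 and 9.64 in DKO, 9.25, 9.59 and 8.99 in Rb KO, and 6.13, 6.37 and 6.10 in WT retinas. DKO replicate 2, the array with the low Xist value, was the lowest DKO array for 9 of the 11 mitotic kinesins that rose, Kif4 among them. The difference of Kif4 from WT was 3.54 (SE 0.161, adjusted p = 4.34e-07) without that array and 3.47 with it. Kif22 read 10.19, 9.83 and 10.01 in DKO, 9.77, 9.78 and 9.52 in Rb KO, and 8.03, 8.08 and 7.89 in WT. Kif22 was above background in 1 WT array, replicate 2, so under the rule used it has a fitted fold and not a limit. In WT replicates 1 and 3 it was below the background levels of those arrays, 8.16 and 8.34. The fold of Kif22, which rests partly on those background readings, was 4.03 in DKO (log2 difference 2.01, SE 0.109, adjusted p = 4.02e-07) and 3.24 in Rb KO (1.69, SE 0.109, adjusted p = 1.99e-06).

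Kif2c, Kif18b and Kif2b belong with the kinesins that shape microtubule ends. Kif2c takes microtubules apart and so frees wrong attachments of chromosomes, and read 9.77, 9.44 and 9.61 in DKO, 9.09, 9.37 and 8.93 in Rb KO, and 6.21, 6.25 and 6.08 in WT retinas. Kif18b, which acts with Kif2c on astral microtubules, read 9.82, 9.64 and 9.64 in DKO, 9.21, 9.31 and 8.83 in Rb KO, and 7.24, 6.86 and 7.08 in WT. Both genes were clear of WT in all mutant arrays, and for both every DKO array was above every Rb KO array. Against WT, Kif2c was at least 2.75-fold higher in DKO and at least 1.97-fold higher in Rb KO, and Kif18b at least 2.93-fold and 1.95-fold. Kif2b, a relative of Kif2c with a role at kinetochores in human cells, was the member that did not pass. It read 5.68, 5.55 and 5.48 in DKO, 5.50, 5.54 and 5.55 in Rb KO, and 5.52, 5.48 and 5.51 in WT, which is below background in every array.

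Kifc1 and Kifc5b are close relatives that walk to the minus ends of microtubules, and Kifc1 draws spindle fibres together at the poles. Kifc1 read 9.74, 9.42 and 9.56 in DKO, 9.46, 9.39 and 9.10 in Rb KO, and 7.94, 7.68 and 7.79 in WT retinas. Kifc5b read 9.13, 8.94 and 9.10 in DKO, 9.07, 8.87 and 8.65 in Rb KO, and 7.66, 7.5 and 7.58 in WT. The mutants did not overlap with WT for either gene, and the limits were at least 2.69-fold (Kifc1) and 1.88-fold (Kifc5b) in DKO, and 2.24-fold and 1.64-fold in Rb KO. The transcripts of such near copies can bind one another's probes, so the values of Kifc1, Kifc5b and the related pseudogene Kifc5c-ps cannot be assigned to one gene with certainty. Kifc5c-ps was not above background in any array, at 7.36, 7.22 and 7.34 in DKO, 7.24, 7.45 and 7.20 in Rb KO, and 6.50, 6.46 and 6.59 in WT, and it passed the test upward in both mutants.

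**Figure D1:**
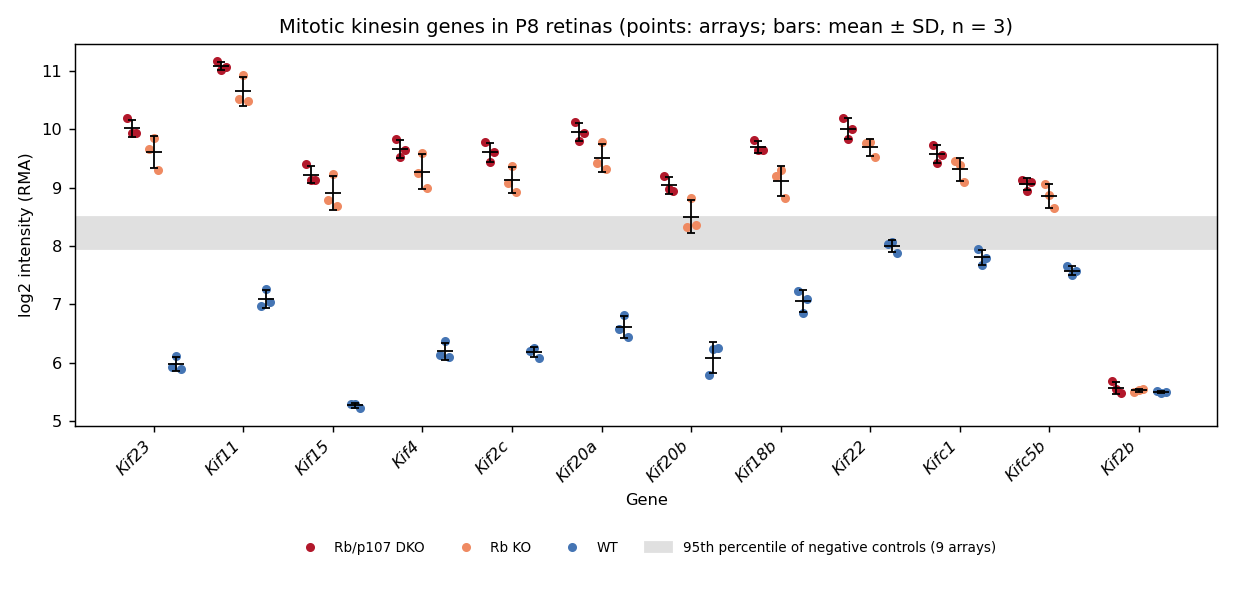
Log2 intensity of the 12 mitotic kinesin genes in each array, with DKO, Rb KO and WT points from left to right and bars for the mean ± SD of 3 arrays. The grey band spans the background levels of the 9 arrays; for 11 genes the mutant points lie above the WT points, and Kif2b lies below the band in all arrays.

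The array that held the highest value was nearly the same for all mitotic kinesins. DKO replicate 1 was the highest DKO array for 11 of the 11 genes that rose, and Rb KO replicate 2 was the highest Rb KO array for 9 of them, with replicate 3 the lowest for 10. Over all genes DKO replicate 1 was highest for 35.6% and Rb KO replicate 2 for 26.3%. The measured cycling cell markers, Mki67, Top2a, Cdk1 and Rrm2, also rose in both mutants. Their summed level was 13.22 to 13.44 in DKO, 12.90 to 13.32 in Rb KO and 8.47 to 8.76 in WT arrays. All 4 were above background in no WT array, so the WT sum adds background readings. With limits in place of the fitted differences, their median log2 difference from WT was 2.76 in DKO and 2.53 in Rb KO. Of these 4, 3 were highest in DKO replicate 1 and all 4 in Rb KO replicate 2. What part the number of cycling cells has in the kinesin levels was not tested.

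Partners of the mitotic motors moved the same way. All 13 of 13 measured genes that work with them rose in both mutants, where 12.2% of all genes rose in DKO and 10.2% in Rb KO. The median fitted log2 difference was 2.38 in DKO and 2.01 in Rb KO. With genes below background in WT at their limit, 8 in DKO and 7 in Rb KO, these medians were 1.47 and 1.06, and another 2 in DKO and 3 in Rb KO passed on background readings in both groups, which give no fold. Hmmr, a spindle assembly protein, read 9.87, 9.54 and 9.72 in DKO, 9.13, 9.69 and 9.34 in Rb KO, and 5.17, 5.37 and 5.09 in WT retinas. Prc1, which bundles midzone microtubules and recruits Kif4, read 10.80, 10.55 and 10.65 in DKO, 10.22, 10.60 and 10.18 in Rb KO, and 6.81, 6.96 and 6.65 in WT. Both stood clear of WT in all mutant arrays, and Prc1 was at least 5.73-fold higher in DKO and at least 4.55-fold higher in Rb KO. Cep55, which acts at the midbody that links daughter cells, was at least 1.76-fold higher in DKO and at least 1.25-fold higher in Rb KO than in WT.

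Promoter sequence was examined because mitotic genes are known to share short promoter elements through which the DREAM complex, which holds p107 or p130, and the activator NF-Y act. RefSeq windows of build GRCm38.p6, from 250 bases before to 50 bases after each annotated start, matched 23 of the 32 members, with 3 genes having more than 1 window. Letters were sought on both strands: TTTGAA or TTCGAA for the cell cycle homology region, CCAAT for the CCAAT box, and TTTCCCGC, TTTCGCGC, TTTGCCGC and TTTGGCGC for E2F sites. No match of one motif overlapped a match of another. The stretches below run from 110 bases before the start to 40 after it, 5′ to 3′ on the strand of the gene, with matches in capitals. On the other strand TTTGAA reads as TTCAAA. The CCAAT box on that strand reads as ATTGG. The E2F letters in Kif15 read there as GCGCCAAA. The stretches show the spindle motors Kif11 and Kif15, the midzone motors Kif23 and Kif4, Kif18b, the near copies Kifc1 and Kifc5b, and for contrast the ciliary Kif24 and the vesicle motor Kif13a.
Kif11, chr19:37376272-37376421, plus strand: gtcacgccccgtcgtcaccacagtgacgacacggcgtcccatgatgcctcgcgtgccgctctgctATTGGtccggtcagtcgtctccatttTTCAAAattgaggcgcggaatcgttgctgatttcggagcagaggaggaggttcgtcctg
Kif15, chr9:122950971-122951120, plus strand: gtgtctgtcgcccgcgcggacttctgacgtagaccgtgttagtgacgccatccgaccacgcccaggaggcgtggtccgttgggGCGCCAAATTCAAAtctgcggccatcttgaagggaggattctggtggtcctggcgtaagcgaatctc
Kif23, chr9:61946760-61946909, minus strand: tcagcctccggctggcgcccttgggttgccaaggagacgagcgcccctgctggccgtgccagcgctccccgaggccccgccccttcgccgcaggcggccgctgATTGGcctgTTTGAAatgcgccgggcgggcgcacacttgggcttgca
Kif4, chrX:100625955-100626104, plus strand: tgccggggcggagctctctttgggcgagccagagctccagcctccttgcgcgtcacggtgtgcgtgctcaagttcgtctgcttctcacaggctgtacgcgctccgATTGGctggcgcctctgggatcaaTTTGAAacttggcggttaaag
Kif18b, chr11:102925085-102925234, minus strand: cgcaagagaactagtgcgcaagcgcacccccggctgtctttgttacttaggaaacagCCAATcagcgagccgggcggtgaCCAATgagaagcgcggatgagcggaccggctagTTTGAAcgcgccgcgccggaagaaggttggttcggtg
Kifc1, chr17:33890594-33890743, minus strand: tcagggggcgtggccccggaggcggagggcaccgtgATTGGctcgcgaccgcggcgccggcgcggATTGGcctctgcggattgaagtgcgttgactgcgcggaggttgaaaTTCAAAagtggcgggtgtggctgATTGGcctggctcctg
Kifc5b, chr17:26916981-26917130, plus strand: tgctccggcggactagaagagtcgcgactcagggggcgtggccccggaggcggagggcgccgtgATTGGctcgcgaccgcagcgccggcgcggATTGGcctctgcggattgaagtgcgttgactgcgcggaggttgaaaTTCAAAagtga
Kif24, chr4:41464809-41464958, minus strand: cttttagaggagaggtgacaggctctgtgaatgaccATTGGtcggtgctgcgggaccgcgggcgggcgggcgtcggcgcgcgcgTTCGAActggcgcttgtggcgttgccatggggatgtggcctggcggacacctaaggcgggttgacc
Kif13a, chr13:46929679-46929828, minus strand: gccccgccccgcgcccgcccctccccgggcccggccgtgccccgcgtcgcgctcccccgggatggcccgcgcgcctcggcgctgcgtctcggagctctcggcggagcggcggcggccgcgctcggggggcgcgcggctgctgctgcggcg

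The cell cycle homology letters were present in the windows of all 10 mitotic kinesins that rose and had a window, and not in that of Kif2b. Of the 12 other members with a window, 1 held them, Kif24, in the form TTCGAA. Either form was held by 19.2% of all 32851 windows. Counting the annotated start as base 1, the match nearest to it lay at -19 to -14 in both Kif11 and Kif15, at 3 to 8 in Kif23 and at 20 to 25 in Kif4. CCAAT was found in 8 of the 11 mitotic windows, Kif2b included, against 37.4% of all windows. It was also in 1 of 4 axonal and vesicle windows (Kif1b) and 3 of 5 ciliary windows. An E2F match was found in Kif15 alone among the 11, against 2.26% of all windows. The Kif13a stretch holds no match. The windows of Kifc1 and Kifc5b are 87.9% identical over 272 aligned bases at an offset of 28 bases, so their matches are not independent. The Kif2c window belongs to an annotated start inside the span of the gene. These matches are letters in a window, and no binding was measured.

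**Figure D2:**
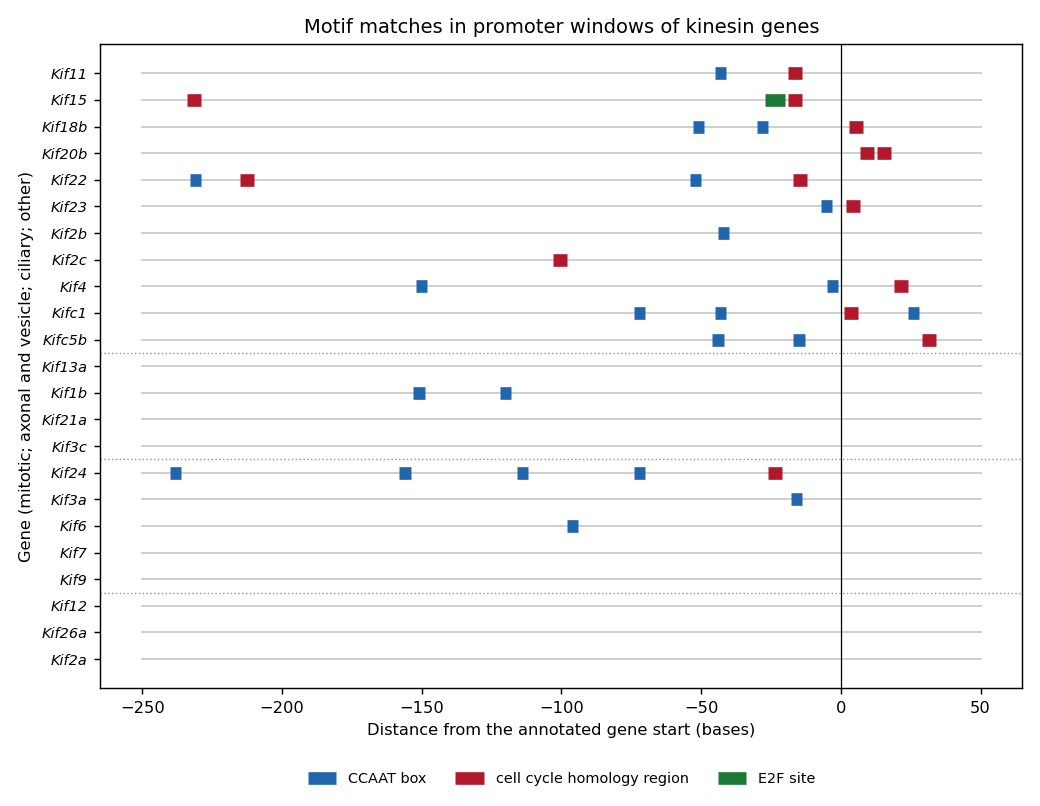
Positions of the matches in the promoter windows of the 23 members, as distance in bases from the annotated start, for a gene with several windows in 1 of them. Red marks of the cell cycle homology region appear in 10 mitotic rows and in Kif24, mostly within 40 bases of the start, and blue marks show CCAAT.

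The axonal and vesicle kinesins that passed the test were all lower in the mutants. Of 9 measured, 5 fell in DKO against WT and 5 fell in Rb KO against WT, namely Kif13a, Kif1b, Kif5a, Kifc2 and Kifc3 in each, and 4 fell in DKO without DKO replicate 2. Over all genes 17.1% fell in DKO and 14.3% fell in Rb KO. In both comparisons 0 of the 9 rose in limma's test at the adjusted p, and 1, Kif13b, was higher at an unadjusted p under 0.05 on readings not above background in any array. The median log2 difference of the 9 was -0.27 in DKO and -0.35 in Rb KO, and with Kifc3 at its limit -0.19 in both, beside -0.06 and -0.05 over all genes.

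Kif13a, which carries endosomal and recycling vesicles, read 8.65, 8.79 and 8.71 in DKO, 9.29, 9.03 and 9.31 in Rb KO, and 9.70, 9.95 and 9.77 in WT retinas. The 3 groups did not overlap, with DKO lowest and WT highest. The log2 difference from WT was -1.09 in DKO (SE 0.098, adjusted p = 1.87e-05) and -0.60 in Rb KO (SE 0.098, adjusted p = 0.00134). Kif1b, a carrier of mitochondria and synaptic vesicle precursors, read 10.62, 10.78 and 10.71 in DKO, 10.91, 10.75 and 10.86 in Rb KO, and 11.16, 11.33 and 11.35 in WT. Both mutants lay below all WT arrays while overlapping each other, at -0.58 in DKO (SE 0.082, adjusted p = 4.03e-04) and -0.44 in Rb KO (SE 0.082, adjusted p = 0.00271).

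Kif5a is the heavy chain of conventional kinesin found mainly in neurons. It read 9.79, 9.93 and 9.93 in DKO, 9.72, 9.71 and 9.99 in Rb KO, and 10.33, 10.58 and 10.27 in WT retinas. WT was highest without overlap, and the differences were -0.51 in DKO (SE 0.105, adjusted p = 0.00399) and -0.59 in Rb KO (SE 0.105, adjusted p = 0.00219). Its broadly expressed relative Kif5b did not pass in either mutant, with -0.18 in DKO (SE 0.083, adjusted p = 0.141) and -0.09 in Rb KO (SE 0.083, adjusted p = 0.482). Whether the differences of Kif5a and Kif5b are unequal was not tested.

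Kifc2 and Kifc3 walk to the minus ends of microtubules, and Kifc2 was described as a neuronal motor. Kifc2 read 8.57, 8.63 and 8.64 in DKO, 8.61, 8.45 and 8.53 in Rb KO, and 8.88, 9.0 and 8.77 in WT retinas. Both mutants lay below WT without overlap, at -0.27 in DKO (SE 0.081, adjusted p = 0.0276) and -0.35 in Rb KO (SE 0.081, adjusted p = 0.00936). The DKO call ended when DKO replicate 2 was left out (adjusted p = 0.0654), and also on leaving out either other DKO array, WT array 1 or WT array 2 (0.0621 to 0.106). Kifc3 read 7.84, 7.94 and 7.96 in DKO, 8.06, 7.84 and 8.20 in Rb KO, and 8.61, 8.64 and 8.46 in WT. It was above background in every WT array and in no mutant array, and was at least 1.14-fold lower in both DKO (fitted difference -0.66, SE 0.097, adjusted p = 5.29e-04) and Rb KO (-0.54, SE 0.097, adjusted p = 0.00251). Of the members that did not pass, Kif21a, which steadies growing microtubule ends in neurons, and Kif3c, a kinesin-2 subunit of neurons, had differences from WT of -0.12 to 0.06 over both mutants.

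The ciliary kinesins passed in both directions, but the only one that passed upward, Kif24, was not above background in any array. Kif3a, Kif19a and Kif9 were above background in some arrays, and their means were lower than WT in both mutants. Of these, Kif3a did not pass in either mutant and Kif19a did not pass in Rb KO. Of 6 measured, 1 passed upward and 2 fell in DKO against WT, and 1 passed upward and 1 fell in Rb KO against WT. Over all genes 12.2% rose and 17.1% fell in DKO, and 10.2% rose and 14.3% fell in Rb KO. Kif3a, the kinesin-2 subunit that drives transport into the cilium and that photoreceptors need, read 9.76, 9.77 and 9.72 in DKO, 9.62, 9.79 and 9.77 in Rb KO, and 9.67, 9.91 and 9.83 in WT retinas. The 3 groups overlapped, and the differences from WT were -0.06 in DKO (SE 0.083, adjusted p = 0.660) and -0.08 in Rb KO (SE 0.083, adjusted p = 0.562).

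Kif19a, which limits the length of motile cilia, differed in the double mutant. It read 8.21, 8.31 and 8.31 in DKO, 9.0, 8.74 and 9.04 in Rb KO, and 9.08, 9.11 and 8.74 in WT retinas. DKO lay below both other groups, which overlapped, and 1 of its 3 arrays was above background. The difference from WT was -0.70 in DKO (SE 0.113, adjusted p = 8.82e-04) and -0.05 in Rb KO (SE 0.113, adjusted p = 0.804). Kif9, a motor of motile cilia and flagella, read 6.97, 7.27 and 7.29 in DKO, 7.64, 7.53 and 8.24 in Rb KO, and 8.33, 8.72 and 8.43 in WT. No mutant array was above background and all WT arrays were, so that Kif9 was at least 1.08-fold lower in both DKO (fitted difference -1.32, SE 0.176, adjusted p = 2.75e-04) and Rb KO (-0.69, SE 0.176, adjusted p = 0.0158). The Rb KO call ended without Rb KO replicate 1 (adjusted p = 0.0703) or replicate 2 (0.0693). The 5 measured markers of motile ciliated cells were not above background in any of the 9 arrays.

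Kif24, Kif6 and Kif7 were not above background in any array. Kif24, which holds back cilium assembly at the mother centriole of cycling cells, read 8.18, 7.84 and 7.93 in DKO, 7.98, 8.08 and 7.83 in Rb KO, and 6.65, 6.74 and 6.66 in WT retinas. It passed the test upward in DKO (1.31, SE 0.0999, adjusted p = 5.41e-06) and Rb KO (1.28, SE 0.0999, adjusted p = 9.24e-06), with no overlap with WT, and as background readings these give no fold. Kif7, which acts in Hedgehog signalling at the cilium tip, and Kif6, known from the motile cilia of the brain ventricles, did not pass in either mutant.

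Of the remaining members, Kif2a was measured above background. Kif2a takes microtubules apart at their ends, both at spindle poles and in growing axons. It read 9.91, 9.95 and 9.94 in DKO, 9.84, 9.96 and 9.96 in Rb KO, and 10.24, 10.09 and 10.25 in WT retinas. WT was highest without overlap, at -0.26 in DKO (SE 0.074, adjusted p = 0.0212) and -0.27 in Rb KO (SE 0.074, adjusted p = 0.0204). Both calls ended under renewed quantile normalization, at an adjusted p of 0.0501 in DKO and 0.0820 in Rb KO, and with equal medians, at 0.0580 and 0.0502. The DKO call also ended when DKO replicate 2 was left out (0.0564), and on leaving out either other DKO array, WT array 1 or WT array 3 (0.0586 to 0.0802). The Rb KO call ended on leaving out WT array 1, WT array 3 or Rb KO array 1 (0.0563 to 0.0682), and when fitted on 2 groups only (0.0668). Kif12, Kif26a and the pseudogene Kif4-ps were not above background in any array and did not pass.

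**Figure D3:**
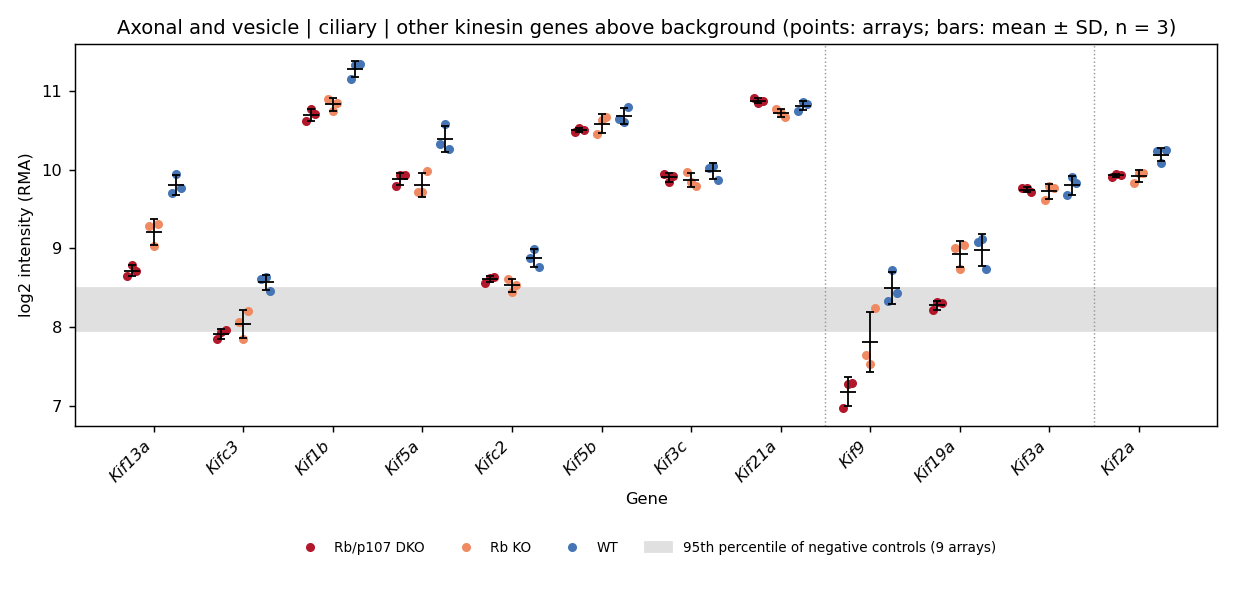
Log2 intensity of the axonal and vesicle, ciliary and other kinesin genes that were above background in at least 1 array, with DKO, Rb KO and WT points from left to right and bars for the mean ± SD of 3 arrays. Kif13a steps down between the groups, Kif19a is low in DKO, and the 3 groups overlap for Kif3a and Kif3c.

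Transport partners were counted beside the motors, and each count is to be read against the 12.2% of all genes that rose and 17.1% that fell in DKO, and the 10.2% that rose and 14.3% that fell in Rb KO. Of the 3 measured kinesin light chains and kinesin-associated proteins, 2 fell in both mutants. These were Klc4, at 8.43, 8.49 and 8.53 in DKO, 8.77, 8.58 and 8.85 in Rb KO, and 9.12, 9.34 and 8.97 in WT retinas, and Klc3. Both link conventional kinesin to cargo, and Klc4 lay below WT in every mutant array, by -0.66 in DKO (adjusted p = 8.05e-04) and -0.41 in Rb KO (adjusted p = 0.0149). The Rb KO call of Klc4 ended without Rb KO replicate 2 (adjusted p = 0.0666), and that of Klc3 (-0.28, adjusted p = 0.0401) on leaving out any one of 7 arrays, which were all but WT array 3 and Rb KO array 1 (0.0608 to 0.154, the lowest of them without DKO replicate 2) and when fitted on 2 groups only (0.0962).

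Among 25 measured cargo adaptors, 2 rose and 14 fell in DKO, and 1 rose and 12 fell in Rb KO, beside 17.1% and 14.3% of all genes that fell. Their median log2 difference was -0.29 in both, beside -0.06 and -0.05 over all genes. Among those counted as falling, Sybu in both mutants and Jakmip1 in DKO passed on readings not above background in any array, which give no fold. Clstn1, which ties kinesin-1 to vesicles in axons, read 10.95, 11.11 and 11.11 in DKO, 11.47, 11.21 and 11.49 in Rb KO, and 11.92, 11.99 and 11.86 in WT retinas. Both mutants lay below WT without overlap, by -0.87 in DKO (adjusted p = 6.31e-05) and -0.54 in Rb KO (adjusted p = 0.00184). Clstn3, of the same family, differed by -0.86 in DKO and -0.75 in Rb KO, and Apba1, known as a link between Kif17 and receptor vesicles, by -0.49 and -0.64. Those that rose were Grip1, which steers kinesin-1 into dendrites, at 0.31 in DKO (adjusted p = 0.0207), and Map7d1, which helps kinesin-1 onto microtubules, at 0.30 in DKO (adjusted p = 0.0410) and 0.30 in Rb KO (adjusted p = 0.0442). The rises of Map7d1 ended without 5 of the arrays in DKO (0.0560 to 0.128) and without 7 in Rb KO (0.0574 to 0.127), with 0.0560 and 0.0579 without DKO replicate 2, and the Rb KO one also when fitted on 2 groups only (0.0895), and that of Grip1 on leaving out WT array 1, DKO array 1 or DKO array 3 (0.0510 to 0.0884).

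Of 21 measured genes of cytoplasmic dynein and dynactin, which walk towards the minus ends and return cargo to the cell body, 1 rose and 15 fell in DKO, and 1 rose and 10 fell in Rb KO, beside 17.1% and 14.3% of all genes that fell. With limits for 3 of them the median log2 difference was -0.31 in DKO and -0.23 in Rb KO. Among the 15 counted as falling in DKO, Dynlrb2 passed on readings not above background in any array, which give no fold. Dctn1, the dynactin subunit that grips microtubules, read 9.24, 9.42 and 9.53 in DKO, 9.77, 9.54 and 9.81 in Rb KO, and 10.28, 10.42 and 10.16 in WT retinas. All mutant arrays lay below WT, by -0.89 in DKO (adjusted p = 1.27e-04) and -0.58 in Rb KO (adjusted p = 0.00244). Dync1i1, a cargo-binding dynein subunit of neurons, was at least 1.22-fold lower in DKO and at least 1.21-fold lower in Rb KO than in WT. The gene that rose was Nde1, a dynein regulator known from dividing neural progenitors, at least 2.05-fold higher in DKO and at least 1.53-fold higher in Rb KO than in WT.

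Of 19 measured genes of intraflagellar transport, the traffic inside cilia, 1 rose and 12 fell in DKO, and 2 rose and 5 fell in Rb KO, beside 17.1% and 14.3% of all genes that fell. The median log2 difference was -0.25 in DKO, with limits for 2 of them, and -0.16 in Rb KO. In each of these comparisons 2 of the 19 were not above background in either group. Dync2li1, a subunit of the dynein that returns material from the cilium tip, read 8.05, 8.17 and 8.13 in DKO, 8.64, 8.56 and 8.91 in Rb KO, and 9.24, 9.28 and 9.07 in WT retinas. The 3 groups did not overlap, and no DKO array was above background. It was at least 1.76-fold lower in DKO than in WT, and the difference between Rb KO and WT was -0.49 (adjusted p = 0.00467). Ift81 differed from WT by -0.50 in DKO (adjusted p = 3.18e-04) and -0.32 in Rb KO (adjusted p = 0.00649), and Ift122 by -0.61 (adjusted p = 5.49e-04) and -0.44 (adjusted p = 0.00557). Ift27, a small GTPase of the transport trains, rose by 0.36 in DKO (adjusted p = 0.0332) and 0.49 in Rb KO (adjusted p = 0.00933), and Ift22 rose by 0.36 in Rb KO (adjusted p = 0.0156) and was at 0.15 in DKO (adjusted p = 0.252). The DKO call of Ift27 ended without WT replicate 3 or any DKO replicate (0.0604 to 0.0913, with 0.0746 without DKO replicate 2) and when fitted on 2 groups only (0.0668), and that of Ift22 in Rb KO on leaving out WT array 1, WT array 3 or Rb KO array 3 (0.0516 to 0.0594).

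Markers of rods, cones, bipolar cells, ganglion cells and pigment epithelium were lower beside the transport genes. The counts below are to be read against all genes, of which 12.2% rose and 17.1% fell in DKO. In Rb KO 10.2% of all genes rose and 14.3% fell. The 5 measured rod markers fell in both mutants, with a summed level of 12.57 to 13.80 in DKO, 12.43 to 13.40 in Rb KO and 14.57 to 14.63 in WT arrays. The 5 cone markers fell in both, at 10.35 to 11.26 in DKO, 10.50 to 11.12 in Rb KO and 12.62 to 12.74 in WT. Bipolar cell markers fell in 5 of 6 cases in DKO and 6 of 6 in Rb KO, at 11.85 to 12.51 in DKO, 11.90 to 12.63 in Rb KO and 13.21 to 13.44 in WT. All 8 ganglion cell markers passed downward in both, 1 of them on readings not above background in either group. Their sum was 12.21 to 12.55 in DKO, 12.21 to 12.74 in Rb KO and 13.01 to 13.27 in WT. Microglia markers passed upward in 5 of 7 cases in DKO and 6 of 7 in Rb KO, at 10.99 to 11.45 in DKO, 10.62 to 11.27 in Rb KO and 10.17 to 10.33 in WT. In each of these comparisons 4 of the 7 were not above background in either group. Pigment epithelium markers passed downward in 6 of 6 cases in both, at 9.51 to 9.75 in DKO, 9.66 to 9.86 in Rb KO and 10.90 to 11.29 in WT, with none above background in any mutant array. Endothelium markers passed downward in 5 of 6 cases in DKO and 4 of 6 in Rb KO, at 12.07 to 12.09 in DKO, 12.15 to 12.28 in Rb KO and 12.19 to 12.38 in WT, where the sums of Rb KO and WT overlapped. Of these 6, 5 were above background in no mutant array. With limits the median log2 difference of the 6 was -0.09 in both, beside -0.06 and -0.05 over all genes. Of 5 Muller glia markers, 1, Sox9, rose and 3 passed downward in both, at 12.42 to 12.54 in DKO, 12.42 to 12.57 in Rb KO and 12.56 to 12.75 in WT. Of these 3, 2 were above background in no mutant array. The median fitted log2 difference of the 5 was -0.41 in DKO and -0.39 in Rb KO. With limits it was 0.18 and 0.17, so the limits do not establish a fall. Of 3 amacrine cell markers, 1 passed upward and 1 downward in both, at 11.53 to 11.54 in DKO, 11.37 to 11.40 in Rb KO and 11.20 to 11.37 in WT. Of 3 horizontal cell markers, 1 passed upward in both, at 9.62 to 9.95 in DKO, 9.45 to 9.82 in Rb KO and 9.33 to 9.49 in WT. Of 8 lens genes, 4 passed upward in DKO, and in Rb KO 0 passed in limma at the adjusted p and 0 at an unadjusted p under 0.05. The mean of the 8 was 9.10 in DKO replicate 2, and 7.53 and 7.38 in DKO replicates 1 and 3. Marker calls without DKO replicate 2 are not given here. The lens sum was 10.88 to 13.01 in DKO, 10.00 to 10.52 in Rb KO and 9.87 to 10.19 in WT. The part of these cell types in the kinesin differences was not tested.

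The means of the kinesin classes were also set side by side. The mean log2 level of the 12 mitotic genes was 9.27 to 9.52 in DKO, 8.81 to 9.20 in Rb KO and 6.57 to 6.66 in WT arrays. That of the 9 axonal and vesicle genes was 9.41 to 9.45 in DKO, 9.43 to 9.53 in Rb KO and 9.74 to 9.86 in WT. That of the 6 ciliary genes was 7.81 to 7.83 in DKO, 7.98 to 8.12 in Rb KO and 7.88 to 8.01 in WT. The ciliary mean includes background readings, since Kif24, Kif6 and Kif7 were not above background in any array. The mitotic mean of WT is made mostly of background readings, since 11 of the 12 were above background in no WT array. The mitotic ranges did not overlap among the 3 groups, and the axonal and vesicle range of WT lay above both mutants.

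**Figure D4:**
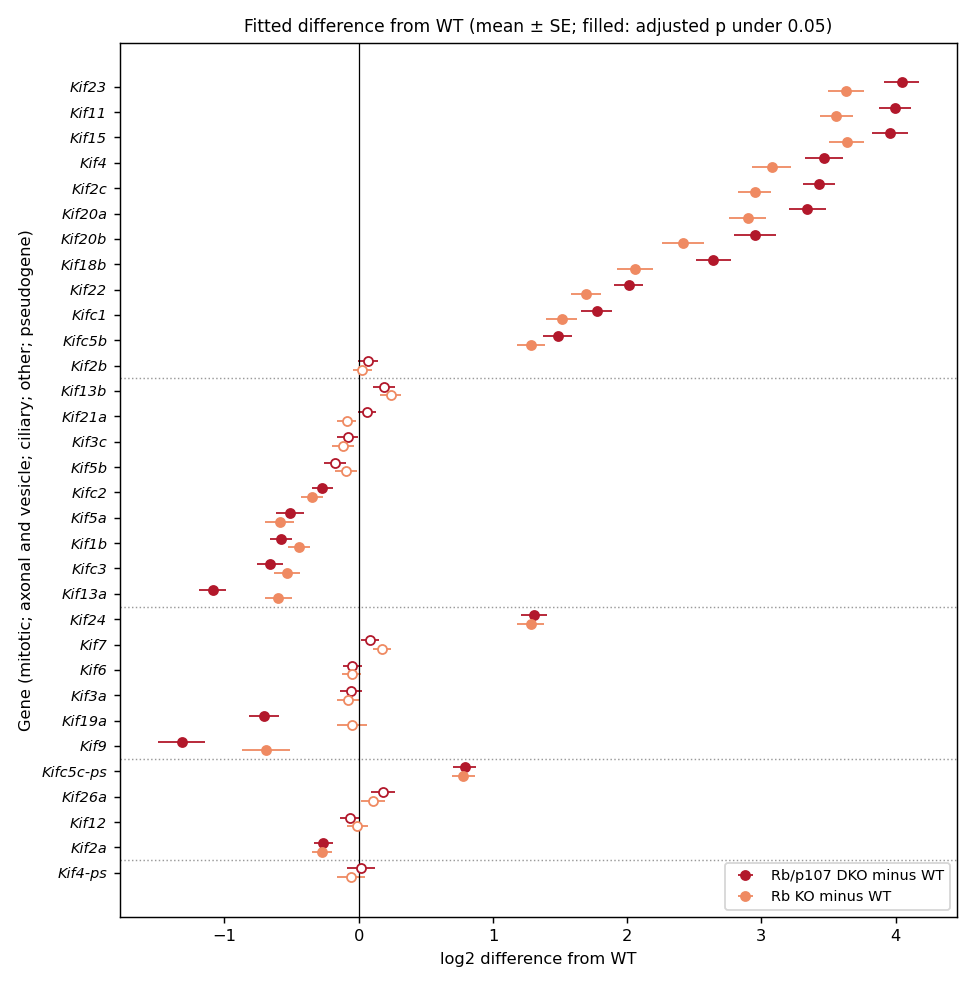
Fitted log2 difference from WT (± SE) of all 32 kinesin genes, for DKO and Rb KO, with filled points where the adjusted p is under 0.05. Mitotic genes other than Kif2b lie to the right at 1.28 to 4.04, and the axonal and vesicle genes at -1.09 to 0.24; for genes not above background in one or both groups the fitted value is not a measured fold.

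The comparison of DKO with Rb KO asks what the added loss of p107 changes. Of the 32 kinesins 3 were called, where 2.54% of all genes were: Kif18b rose, as did 1.34% of all genes, and Kif13a and Kif19a fell, as did 1.21%. All 12 mitotic kinesins had a higher mean in DKO than in Rb KO, with a median log2 difference of 0.40 beside -0.0025 over all genes, and 10 of the 12 were higher at an unadjusted p under 0.05, as were 7.58% of all genes. For 7 of the 12, every DKO array was above every Rb KO array, as for 11.3% of all genes. The mitotic kinesins share the same 6 arrays and moved together from array to array, so these counts are not independent of one another.

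Kif18b differed by 0.59 (SE 0.133, adjusted p = 0.0466), a 1.5-fold rise. That call ended on leaving out WT array 3, Rb KO array 1, Rb KO array 3 or any DKO array (adjusted p = 0.0728 to 0.182, with 0.0880 without DKO replicate 2), and with equal medians (0.0649). On leaving out any one of those arrays no mitotic kinesin passed, with 6 to 10 at an unadjusted p under 0.05 in limma. Without Rb KO replicate 2, the array with the highest mitotic kinesin levels of its group, 5 mitotic kinesins passed, among them Kif11 at 0.58 (adjusted p = 0.0225) and Kif2c at 0.60 (adjusted p = 0.0278). With all arrays Kif11 differed by 0.44 (SE 0.122, adjusted p = 0.102) and Kif2c by 0.48 (SE 0.120, adjusted p = 0.0705). Among the mitotic partners 3 of 13 rose in DKO against Rb KO, with Racgap1, the partner of Kif23, at 0.53 (adjusted p = 0.0300) and Cep55 at 0.50 (adjusted p = 0.0314). Both calls ended on leaving out array 1 or array 3 of either mutant (0.0952 to 0.141), and that of Cep55 under renewed quantile normalization too (0.0702).

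Kif13a was lower in DKO than in Rb KO by -0.49 on the log2 scale (SE 0.098, adjusted p = 0.0291). The difference no longer passed when array 1 or array 3 of either mutant was left out (adjusted p = 0.105 to 0.118). Kif19a was lower by -0.65 (SE 0.113, adjusted p = 0.0129), and its call ended without the same arrays taken one at a time (0.0511 to 0.0649). Both calls held without DKO replicate 2, at an adjusted p of 0.0470 for Kif13a and 0.0315 for Kif19a. Among transport partners, Map7, which recruits kinesin-1 to microtubules, differed by -0.37 (adjusted p = 0.0429), and Dync2li1 was at least 1.26-fold lower (adjusted p = 0.0114). Dynlrb2, a dynein light chain, passed downward (adjusted p = 0.0294) on readings not above background in any array, which give no fold. The call of Map7 ended on leaving out any one of 7 arrays, which were all but WT array 2 and Rb KO array 2 (0.0608 to 0.194, with 0.0657 without DKO replicate 2), with equal medians (0.0501) and when fitted on 2 groups only (0.0558). That of Dync2li1 ended on leaving out DKO array 1 or DKO array 3 (0.0587 and 0.0502), and that of Dynlrb2 on leaving out Rb KO array 1, Rb KO array 3 or any DKO array (0.0731 to 0.126, the lowest of them without DKO replicate 2).

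**Figure D5:**
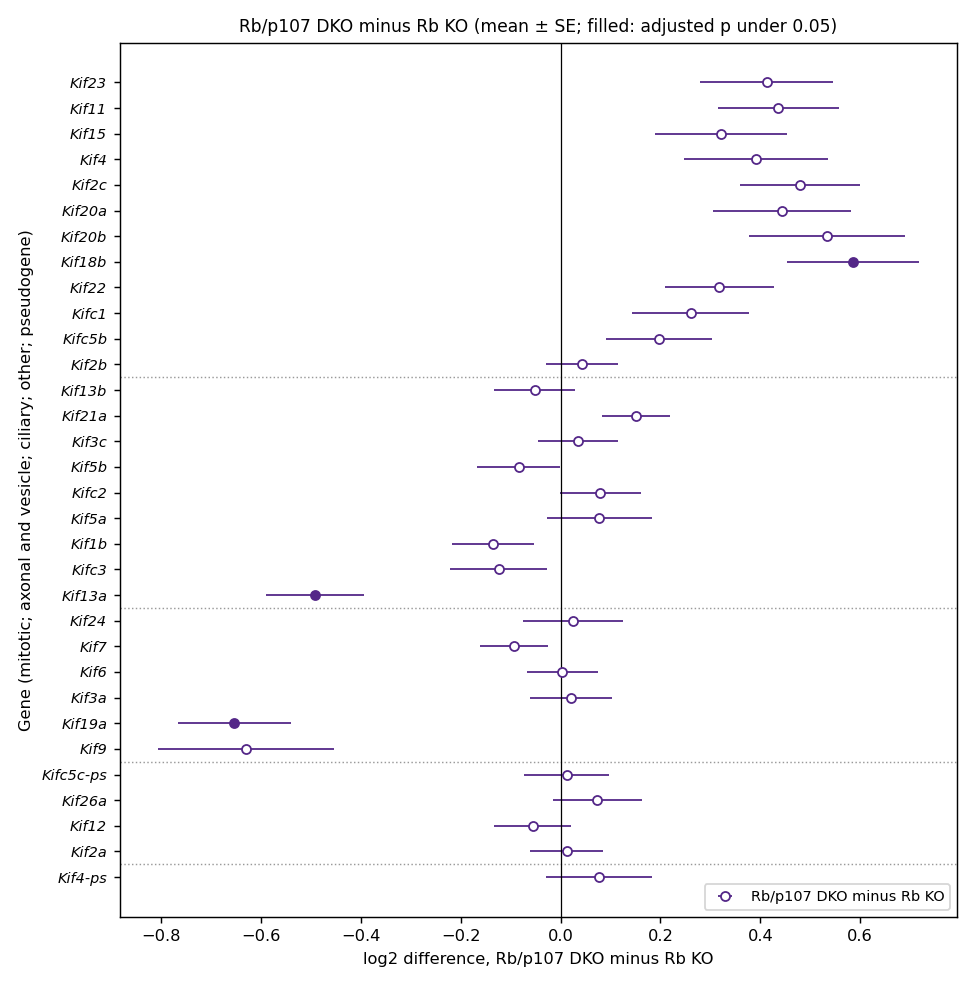
Fitted log2 difference (± SE) of DKO minus Rb KO for all 32 kinesin genes, with filled points where the adjusted p is under 0.05. All 12 mitotic genes lie right of 0, up to 0.59 for Kif18b, and the filled points on the left are Kif13a at -0.49 and Kif19a at -0.65.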

How the data were processed

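RNA of 9 whole mouse retinas was read on an Affymetrix whole-transcript array. The deposited values are log2 intensities per probe set, which the authors made with RMA (robust multi-array averaging) per the submitters' processing notes. Neither the version of RMA nor the build behind the annotation is given in the sources used here. All values were used as deposited, 1 table for all arrays. Of 59649 probe sets 52917 were transcript clusters, 24646 with 1 symbol and 1795 with several; 663 symbols were updated through their Entrez ID. The brightest probe set stood for a gene, giving 24259 genes with no filter on dim ones. A gene was called above background over the 95th percentile of the negative controls of that array, as 27.2% to 36.4% of genes were.

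All genes were fitted in limma 3.58.1 (R 4.3.3) to the means of 3 groups, with 6 residual and 4.69 prior degrees of freedom, and p-values were adjusted over all genes by Benjamini-Hochberg (call at 0.05). A lower limit replaces the fold where no array of the lower group exceeded background. It is no confidence limit, since it leaves out the spread between arrays, and the 3 arrays per group limit the precision of all values. The design text calls the arrays biological replicates, and the labels give no batch.

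Members, classes and partner lists were chosen with earlier results of these data known. Values per array are given for every mitotic kinesin and for every other kinesin that was called against WT and above background in 1 group or more, with fold, SE and adjusted p for the 8 non-mitotic ones. From each partner list up to 2 rising and 2 falling genes with the lowest p were named. Values beyond this, of Kif3a, Kif5b, Kif24, Kif2b and Kifc5c-ps, were chosen after their values were seen. Alternatives were renewed quantile normalization, equal medians, the mean of all probe sets, a filter on dim genes, limma-trend, fits of 2 groups only, a replicate block and leaving out each array. Figures were drawn with matplotlib 3.10.9.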

Additional observations from a re-analysis of the deposited data

How the results depend on the processing

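Under the alternatives run, 19 to 21 kinesins were called in DKO against WT and 18 to 21 in Rb KO against WT, with 11 mitotic kinesins called in every one. The axonal and vesicle count was 4 to 5 in DKO and 5 to 6 in Rb KO. The ciliary count in Rb KO against WT, 2, was 1 with the filter on dim genes, which removes Kif24, and 1 to 2 when single arrays were left out. Counts in DKO against Rb KO moved more. All kinesins, 3 called, gave 6 with the filter on dim genes and 0 to 7 when single arrays were left out, with 0 called on leaving out array 1 or array 3 of either mutant (9 to 13 at an unadjusted p under 0.05 in limma) and 7 without Rb KO replicate 2. Mitotic kinesins, 1 called, gave 3 with that filter, 0 with equal medians (9 at an unadjusted p under 0.05) and 0 to 5 when single arrays were left out (6 to 10 at an unadjusted p under 0.05). Axonal and vesicle kinesins, 1 called, gave 0 to 1 without single arrays, and ciliary kinesins, 1 called, gave 2 with the filter and 0 to 1 without single arrays (both classes had 1 to 2 at an unadjusted p under 0.05 where 0 were called). Fewer genes are tested under the filter, and the cause of the other moves was not tested. The difference of Kif19a in Rb KO against WT, -0.05 and not called, ran from -0.17 without WT replicate 3 to 0.0427 without Rb KO replicate 2, and was above 0 also without WT replicate 1 (0.0006) and WT replicate 2 (0.0176). A gene not above background in the lower group has only a limit, and one not above it in both groups has neither fold nor limit.

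Replicate numbers are shared between groups. Deviations of same-numbered arrays from their group means had correlations of -0.162 to 0.145, inside the -0.33 to 0.246 of differently numbered arrays. With 3 arrays per group, such correlations cannot settle whether same-numbered samples share more than a number. With the replicate block, 20 kinesins were called in DKO against WT and 20 in Rb KO against WT. Between DKO and Rb KO there were 2. The axonal and vesicle count in DKO against Rb KO was then 0 (1 at an unadjusted p under 0.05), as Kif13a had an adjusted p of 0.0576. The block also ended the calls of Kifc2 (0.05001) and Map7d1 (0.0502) in DKO against WT and of Klc3 (0.0664) and Map7d1 (0.0545) in Rb KO against WT. Between DKO and Rb KO it ended those of Racgap1 (0.0513), Dynlrb2 (0.0531) and Map7 (0.0873).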
